A study of Mus musculus with 8 samples.

Results

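Junction genes of epithelial cells, 10 in number, were followed through 8 RNA sequencing libraries of 4T1 cells, a mouse mammary carcinoma line. The genes were the claudins Cldn1, Cldn3, Cldn4, Cldn6 and Cldn7, together with Epcam, Cdh1, Ocln, Tjp1 and Jup, and they make up 10 of the 54532 genes listed. Cldn4 and Epcam were chosen by their level, because it differed strongly between the 2 lines, so their difference between the lines is described here and not tested. The other 8 genes were added as further members of the same junctions. The cells were stable transfectants under puromycin selection, carrying either a scramble shRNA or 1 shRNA against MCT-1 (shMCT-1), the product of Mcts1. Each line received control IgG or anti-IL-6R, an antibody against the interleukin-6 receptor, at 100 ng/ml for 48 h. This gave 4 groups of 2 libraries, which the labels call independent biological replicates: the scramble line with IgG or with anti-IL-6R, and the shMCT-1 line likewise. As each shRNA is represented by 1 line, the knockdown and other differences between the lines cannot be told apart. In these bulk samples, fewer cells with a transcript and less of it per cell cannot be told apart either.

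Epithelial cells hold together through several kinds of junction. Tight junctions are sealed by claudins and occludin in the membrane, and ZO proteins anchor these strands to actin. Below them lie the adherens junctions, in which E-cadherin binds catenins, and the desmosomes, in which desmosomal cadherins bind plakoglobin, plakophilins and desmoplakin. EpCAM is a homophilic membrane glycoprotein of epithelia that is known to bind claudin-7 and to be cut by proteases. Loss of junction transcripts is a hallmark of epithelial-mesenchymal transition (EMT), in which repressors of the Snail and Zeb families bind E-box motifs in the promoters of such genes.

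Library totals ranged from 19839299 to 33063570 counts, and the 4 shMCT-1 libraries were all smaller than the 4 scramble libraries. Levels are given in CPM, the counts of a gene per 1000000 counts of its library, and 1 CPM stood for 19.8 to 33.1 counts. Differences between groups are log2 fold changes from edgeR's quasi-likelihood fit of all 8 libraries over the 12704 genes above 1 CPM in at least 2 libraries. They are given with their standard error (SE) or their 95% interval, and a gene was called at a Benjamini-Hochberg adjusted p under 0.05 over all tested genes. The targeted gene Mcts1 lay at 11.8 to 15.4 CPM in the scramble libraries and at 4.92 to 6.70 CPM in the shMCT-1 libraries. Its log2 fold change was -1.08 (SE 0.17, edgeR adjusted p = 6.76e-04) within IgG and -1.13 (SE 0.17, adjusted p = 5.57e-04) within anti-IL-6R. Mitochondrial genes took 1.97 to 2.52% of the counts in the scramble libraries and 0.84 to 1.53% in the shMCT-1 libraries. The cells carried keratins of simple epithelia in both lines, with Krt8 at 1031 to 1429 CPM and Krt18 at 622 to 959 CPM. The 7 fibroblast markers summed to 12.7 to 17.3 CPM over all libraries, nearly all of it Pdgfra at 10.9 to 16.7 CPM, while Col3a1, Pdgfrb and Lum had 1 count at most in any library. The 5 endothelial markers summed to 0.096 to 0.332 CPM in the scramble libraries and 0.555 to 1.91 CPM in the shMCT-1 libraries. The 7 immune markers summed to 3.14 to 3.94 and 6.10 to 7.81 CPM, most of it Cd68, with Cd3e and Adgre1 at 0 in every library and Ptprc at 3 counts at most.

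Cldn4, a claudin of the tight junction strand, and Epcam were both low in the scramble line and high in the shMCT-1 line. The mouse genes lie on different chromosomes. Cldn4 has 1 exon at chr5:134945119-134946934 on the minus strand, and Epcam has up to 10 exons at chr17:87635979-87651129 on the plus strand (GRCm38). Their promoter windows, with that of Cldn3, the claudin gene next to Cldn4, are shown because the level of Cldn4 and Epcam sets the lines apart and that of Cldn3 went the other way. The sequences are from RefSeq on GRCm38.p6 and run 5′ to 3′ on the strand of the gene, from 250 bases before the start site to 50 bases after it. The windows are chr5:134946885-134947184 on the minus strand for Cldn4, chr17:87635729-87636028 on the plus strand for Epcam and chr5:134985964-134986263 on the plus strand for Cldn3. Capitals mark E-boxes (CAGGTG or its reverse complement CACCTG) and GC boxes (GGGCGG or its reverse complement CCGCCC).
Cldn4: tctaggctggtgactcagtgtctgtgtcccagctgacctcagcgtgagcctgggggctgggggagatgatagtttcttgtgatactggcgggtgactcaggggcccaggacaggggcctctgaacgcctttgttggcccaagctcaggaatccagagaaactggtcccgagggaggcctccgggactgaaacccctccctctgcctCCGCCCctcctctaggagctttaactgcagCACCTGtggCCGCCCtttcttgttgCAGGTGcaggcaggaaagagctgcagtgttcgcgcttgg
Epcam: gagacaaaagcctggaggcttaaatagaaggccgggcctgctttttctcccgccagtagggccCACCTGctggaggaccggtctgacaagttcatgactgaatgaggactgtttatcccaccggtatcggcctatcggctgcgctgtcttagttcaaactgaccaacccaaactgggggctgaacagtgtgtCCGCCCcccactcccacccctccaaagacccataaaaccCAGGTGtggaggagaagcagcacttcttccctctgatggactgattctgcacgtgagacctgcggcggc
Cldn3: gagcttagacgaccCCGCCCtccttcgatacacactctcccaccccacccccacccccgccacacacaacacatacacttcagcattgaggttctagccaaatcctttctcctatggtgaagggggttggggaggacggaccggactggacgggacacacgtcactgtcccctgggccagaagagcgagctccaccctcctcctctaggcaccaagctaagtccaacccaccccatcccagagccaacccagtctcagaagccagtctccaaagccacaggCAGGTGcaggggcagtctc

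Counting the start site as position 0, the Cldn4 window held E-boxes whose first bases lie at positions -14 and 11, and GC boxes at -44 and -5. The Epcam window held E-boxes at -187 and -19 and a GC box at -58. The Cldn3 window held a single E-box at 31 and a single GC box at -236. None of these motifs overlapped another. Among the 9 junction genes with a RefSeq window, 5 held an E-box (Cldn3, Cldn4, Cldn6, Epcam and Ocln), which 20.2% of all 32851 windows held. A GC box stood in 8 of the 9, all but Cldn7, against 35.7% of all windows. The GC content of the 9 windows ran from 52% for Cldn7 to 65.3% for Tjp1, beside a median of 52.7% for all windows. The shares of all windows were not matched for GC content. The start site of the Tjp1 window lies 156537 bases from the annotated gene start, and that of the Cldn6 window 116 bases. Jup alone held a CCAAT box (CCAAT, either strand), which 37.4% of all windows held. No TATA box (TATAAA) and no Grainyhead motif (AACCGGTT) was found in the 9 windows on either strand, and 13.6% and 0.146% of all windows held these. The windows of Cldn4, Epcam and Cldn3 each held both marked motifs. The motifs are letter matches in these windows only, and their part in the levels was not tested.

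In the scramble line, Cldn4 measured 6.36 and 4.86 CPM with IgG and 5.57 and 5.41 CPM with anti-IL-6R. In the shMCT-1 line it measured 75.1 and 77.4 CPM with IgG and 77.9 and 71.8 CPM with anti-IL-6R. All 4 shMCT-1 libraries lay far above all 4 scramble libraries. The means were 5.61 ± 1.06 and 76.2 ± 1.63 CPM with IgG (SD, n = 2 each), a 13.6-fold difference, and 5.49 ± 0.109 and 74.8 ± 4.33 CPM with anti-IL-6R, again 13.6-fold. As a description, the fitted log2 fold change was 3.80 (SE 0.12) within IgG and 3.82 (SE 0.12) within anti-IL-6R. Of the 12704 tested genes, 114 and 115 had a higher one.

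Epcam followed the same split. It measured 4.72 and 4.07 CPM in scramble + IgG, 4.93 and 3.75 CPM in scramble + anti-IL-6R, 54.5 and 50.7 CPM in shMCT-1 + IgG, and 50.5 and 49.4 CPM in shMCT-1 + anti-IL-6R. The scramble values rested on 98 to 154 counts a library and the shMCT-1 values on 1001 to 1190. The lines did not overlap, and the groups with IgG averaged 4.39 ± 0.464 and 52.6 ± 2.66 CPM (SD, n = 2 each), a 12.0-fold difference. With anti-IL-6R the means were 4.34 ± 0.833 and 49.9 ± 0.716 CPM, 11.5-fold apart. The fitted log2 fold changes, also a description, were 3.62 (SE 0.14) within IgG and 3.58 (SE 0.13) within anti-IL-6R.

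**Figure D1:**
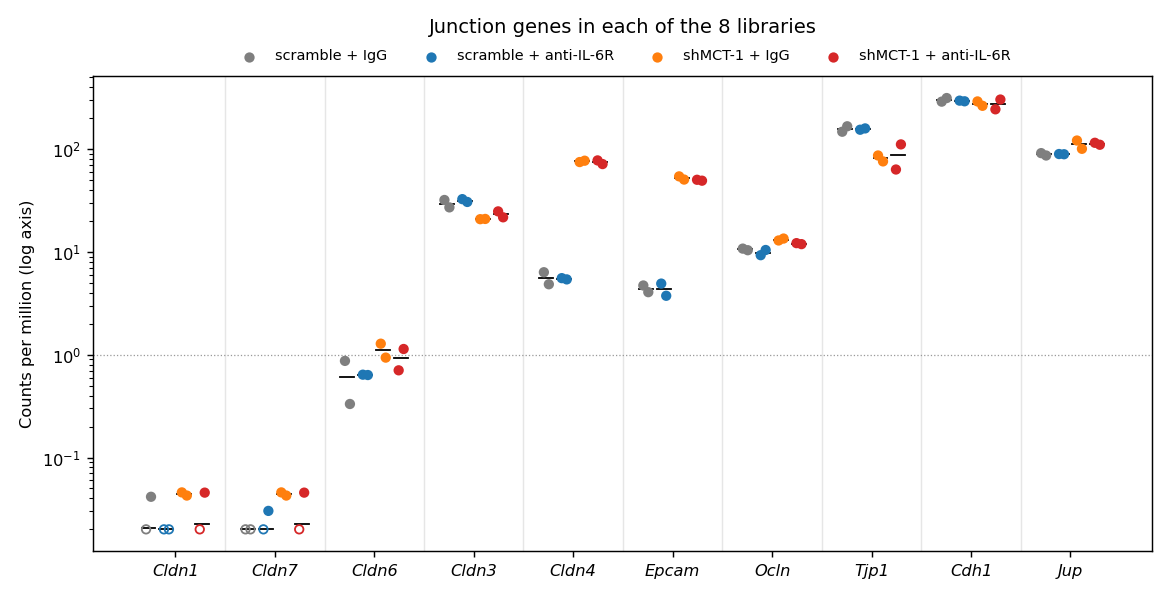
CPM on a log axis of the 10 junction genes in each library, 2 points a group, with a bar at the mean of the group; open points at the lower edge are libraries with 0 counts, and the dotted line is 1 CPM. Cldn4 and Epcam stand about an order of magnitude higher in the shMCT-1 libraries, Cdh1 overlaps between the lines, and Cldn1 and Cldn7 never exceed 1 count.

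The genes around these 2 did not show a difference of that size in their direct neighbourhood. The nearest tested genes on either side of Cldn4 were Mettl27 and Cldn3. Mettl27, whose start is 14.6 kb away, lay at 2.75 to 3.74 CPM in the scramble and 1.78 to 2.42 CPM in the shMCT-1 libraries and fell within IgG (log2 fold change -0.75, edgeR adjusted p = 0.0237), a call that DESeq2 did not make (adjusted p = 0.0506) and that was lost without scramble + IgG replicate 1 or either shMCT-1 + IgG library (adjusted p = 0.0811 to 0.0907). Beyond them, Limk1 (log2 fold change -0.09, adjusted p = 0.513) and Abhd11 (0.27, adjusted p = 0.139) did not pass the test within IgG. Around Epcam, the genes Calm2, Ttc7 and Msh6 were followed, and their log2 fold changes within IgG ran from -0.13 for Ttc7 to 0.09 for Calm2, none of them called. Within anti-IL-6R, Ttc7 was called (-0.26, edgeR adjusted p = 0.0237), a call that did not hold without a filter (adjusted p = 0.102). The call also depended on single libraries. Ttc7 stood at -0.24 or -0.28 without scramble + anti-IL-6R replicate 1 or 2, and at -0.19 without shMCT-1 + anti-IL-6R replicate 1. Calm2 was not called there (0.26, edgeR adjusted p = 0.0735). It was called by edgeR's exact test (adjusted p = 0.0164) and in an edgeR fit of the 4 anti-IL-6R libraries alone (adjusted p = 0.0175). The same held without a filter (adjusted p = 0.0383) and with the correction for GC content and length (adjusted p = 0.0184). Leaving out scramble + IgG replicate 1 or 2 turned Abhd11 and Calm2 into calls within IgG (0.46 and 0.28, adjusted p = 0.0304 and 0.0181). Corrected for GC content and transcript length, Limk1 (-0.34, adjusted p = 0.0131) and Ttc7 (-0.31, adjusted p = 0.00803) were called lower within IgG. Within 2 Mb of Cldn4, 45 other genes were tested, with a median log2 fold change of 0.27 within IgG and 0.21 within anti-IL-6R. Fzd9, a Wnt receptor gene picked out after its values were seen, had the highest of them (2.93 within IgG and 3.14 within anti-IL-6R), 304 kb from Cldn4. Within 2 Mb of Epcam, 16 other genes were tested, and their log2 fold changes ran from -0.98 to 0.58 within IgG. The chromosomes as a whole stood near 0, with a median of -0.00277 for chromosome 5 and -0.00746 for chromosome 17 within IgG.

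**Figure D2:**
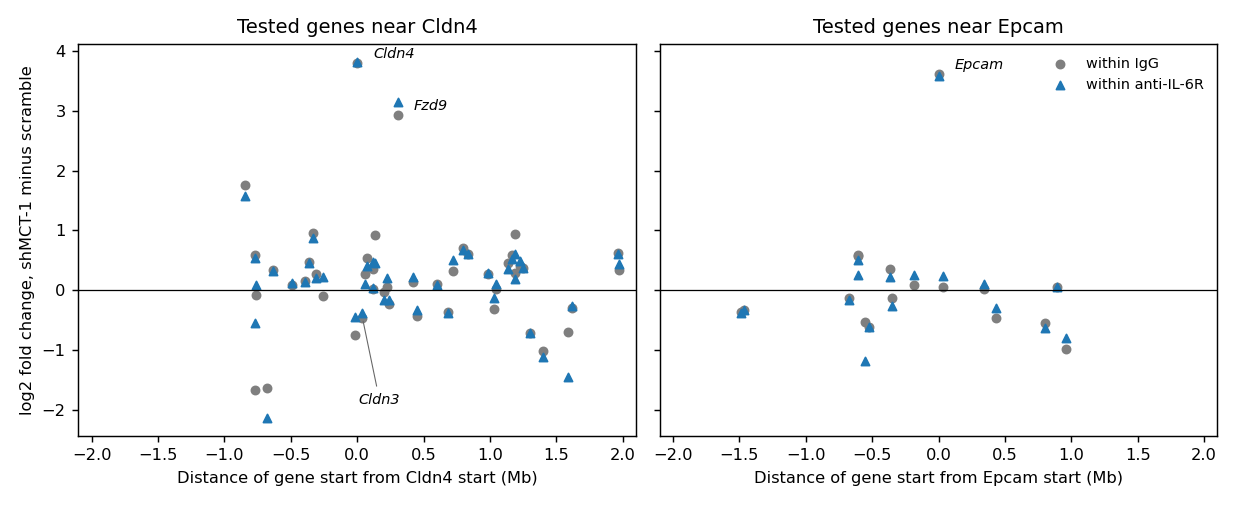
Log2 fold change of shMCT-1 over scramble for every tested gene whose start lies within 2 Mb of the start of Cldn4 (left) or Epcam (right), with circles within IgG and triangles within anti-IL-6R, against the distance in Mb. Cldn4 at 3.80 stands beside Cldn3 at -0.46, and no gene near Epcam exceeds 0.58 within IgG.

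Cldn3, another sealing claudin, moved opposite to its neighbour. The pair lie 39.3 kb apart on chromosome 5, on opposite strands, with no tested gene between them, and Cldn3 has 1 exon at chr5:134986214-134987472. It measured 32.1 and 27.2 CPM in scramble + IgG, 32.7 and 30.7 CPM in scramble + anti-IL-6R, 20.87 and 20.98 CPM in shMCT-1 + IgG, and 24.9 and 21.8 CPM in shMCT-1 + anti-IL-6R. Every shMCT-1 library lay below every scramble library. Its log2 fold change was -0.46 (SE 0.11, edgeR adjusted p = 0.00601) within IgG and -0.39 (SE 0.11, adjusted p = 0.0133) within anti-IL-6R. The second call was lost without scramble + anti-IL-6R replicate 1 (adjusted p = 0.097) and without shMCT-1 + anti-IL-6R replicate 2 (adjusted p = 0.0752).

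Cldn6, a claudin known mainly from early development, was close to the limit of what these libraries hold. It gave 24 and 8 counts in scramble + IgG, 20 and 21 in scramble + anti-IL-6R, 28 and 22 in shMCT-1 + IgG, and 14 and 25 in shMCT-1 + anti-IL-6R. On the CPM scale the lines overlapped, at 0.332 to 0.872 and 0.706 to 1.28, and the gene passed the filter only through 2 shMCT-1 libraries. Since that line is also where its level was higher, its fitted log2 fold changes of 0.89 (SE 0.47) within IgG and 0.59 (SE 0.46) within anti-IL-6R are given as a description, with no test. Cldn1 and Cldn7, the latter the claudin that EpCAM is known to bind, were not detected at this depth. Each had 4 counts in all 8 libraries together and 1 count at most in any of them, below the floor of 3 counts that a library could show, which was 0.0907 to 0.151 CPM. No fold is given for either.

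The other claudins were counted as a family. Of 32 further claudin symbols 28 were matched, 20 of these had 3 counts or fewer in every library, and 3 passed the filter. Cldn9 lies next to Cldn6 on chromosome 17, 137 bases away on the other strand, and was higher in the shMCT-1 line, at 10.0 to 12.5 CPM against 33.1 to 38.5 CPM. Its log2 fold change was 1.76 (SE 0.13, edgeR adjusted p = 8.63e-06) within IgG and 1.66 (SE 0.13, adjusted p = 1.04e-05) within anti-IL-6R. Cldn12 lay at 71.1 to 73.7 and 47.9 to 55.0 CPM and fell in both treatments (log2 fold changes -0.48 and -0.35, edgeR adjusted p = 0.00155 and 0.0082), the second call being lost without either scramble + anti-IL-6R library (adjusted p = 0.0504 and 0.0631). Cldn23 lay at 2.78 to 3.78 and 1.45 to 2.37 CPM and fell within IgG (-1.05, edgeR adjusted p = 0.00637, and 0.0501 without shMCT-1 + IgG replicate 2). Within anti-IL-6R its log2 fold change was -0.44 (edgeR adjusted p = 0.155), and it was called with the correction for GC content and transcript length (-0.66, adjusted p = 0.0348). The same correction took Cldn12 within anti-IL-6R to -0.22 (adjusted p = 0.0384). The median log2 fold change of the 3 was -0.47 within IgG, beside 0.0109 for all tested genes.

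Set per kilobase of exon, the claudin transcripts of the lines had a different make-up. All claudins together summed to 51.2 to 57.8 CPM per kilobase in the scramble libraries and 94.5 to 103.9 in the shMCT-1 libraries. Cldn3 held 42.2 to 45.7% of that sum in the scramble libraries and 16.9 to 19% in the shMCT-1 libraries, while Cldn4 held 5.22 to 6.06% and 41.3 to 43.3%. Cldn12 went from 29.2 to 34.1% down to 11.6 to 13.4%, and Cldn9 from 13.5 to 15.0% up to 24.3 to 27.3%. The leading claudin transcript was thus Cldn3 in every scramble library and Cldn4 in every shMCT-1 library, also with the length of the longest transcript. The shares of one library add up to a whole, so that a rise of one lowers the others. Because Cldn4 was chosen for its difference between the lines, its change of share and its part in the larger sum follow from that choice.

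**Figure D3:**
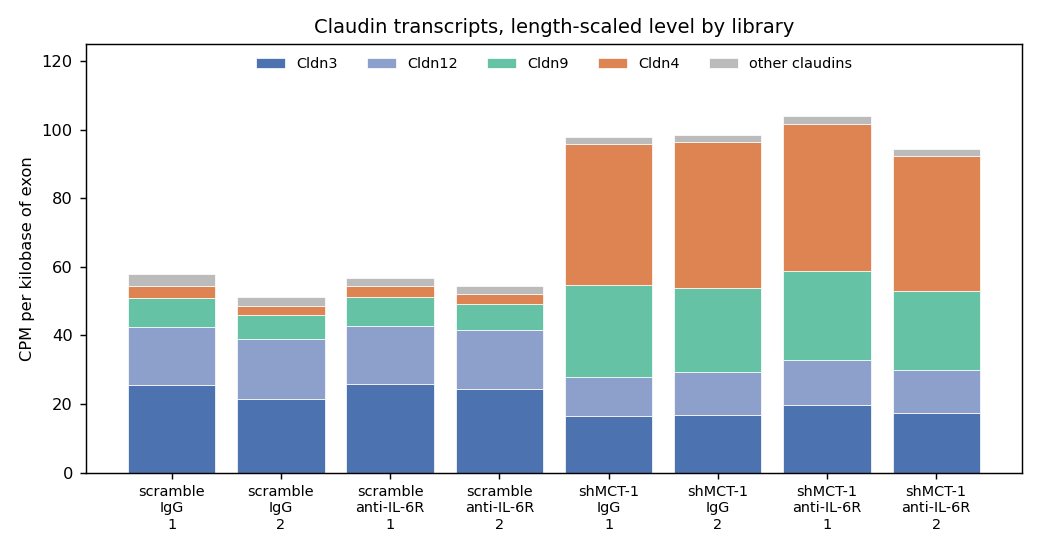
Length-scaled level of the claudin genes in each library as stacked bars from 0, in CPM per kilobase of exon. The bars reach 51.2 to 57.8 in the scramble libraries and 94.5 to 103.9 in the shMCT-1 libraries, and the Cldn4 segment grows from 5.22 to 6.06% of the bar to 41.3 to 43.3%.

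Ocln, which encodes occludin, differed little. It measured 10.8 and 10.4 CPM in scramble + IgG, 9.31 and 10.5 CPM in scramble + anti-IL-6R, 13.0 and 13.5 CPM in shMCT-1 + IgG, and 12.2 and 11.9 CPM in shMCT-1 + anti-IL-6R. All shMCT-1 libraries stood above all scramble libraries, though by a narrow gap. The log2 fold change was 0.36 (SE 0.11, edgeR adjusted p = 0.0219) within IgG and 0.34 (SE 0.11, adjusted p = 0.0287) within anti-IL-6R. These calls were not made by DESeq2 (adjusted p = 0.0959 and 0.104) nor without a filter (adjusted p = 0.0747 and 0.075). Leaving out any 1 of the 4 IgG libraries ended the first, with log2 fold changes of 0.33 to 0.39. The second was also lost in an edgeR fit of the 4 anti-IL-6R libraries alone (adjusted p = 0.0503). It ended as well without either scramble + anti-IL-6R library or shMCT-1 + anti-IL-6R replicate 1, with log2 fold changes of 0.26 to 0.42. Ocln lies at chr13:100496507-100552718, and the tested genes of chromosome 13 had a median log2 fold change of -0.42 within IgG.

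Tjp1, which encodes the scaffold ZO-1, was lower in the shMCT-1 line. It measured 148 and 167 CPM in scramble + IgG, 155 and 160 CPM in scramble + anti-IL-6R, 87.0 and 76.2 CPM in shMCT-1 + IgG, and 63.5 and 111.5 CPM in shMCT-1 + anti-IL-6R. The lines did not overlap, but the last group was spread widely. For Tjp1 the log2 fold change was -0.91 (SE 0.20, edgeR adjusted p = 0.00418) within IgG and -0.79 (SE 0.20, adjusted p = 0.00861) within anti-IL-6R. Without shMCT-1 + anti-IL-6R replicate 1 the latter was -0.43, and without replicate 2 it was -1.23, and both passed the test.

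Transcript length moved with these values. Tjp1, whose longest transcript has 7049 bases, belongs to the longest of 4 equal length classes of the tested genes, that of 4638 bases or more. This class had a median log2 fold change of -0.29 within IgG and -0.30 within anti-IL-6R, against 0.32 and 0.26 for the shortest class. Between the replicates of shMCT-1 + anti-IL-6R the longest class differed by a median of 0.20 on the log2 scale, and Tjp1 by 0.80. With each library corrected for GC content and transcript length, Tjp1 remained called at -0.62 within IgG (edgeR adjusted p = 0.00534) and -0.50 within anti-IL-6R (adjusted p = 0.0156). Under the same correction Cldn4 stood at 3.45 and 3.55, Epcam at 3.35 and 3.40, Cldn3 at -0.79 and -0.67, and Ocln at 0.59 and 0.59. Cldn3, Cldn4 and Cldn6 belong to the shortest class, Epcam to the second, and Cdh1, Ocln and Jup to the third.

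Cdh1, the gene of E-cadherin, was the most abundant of the 10 and showed no detectable difference between the lines. It measured 291 and 315 CPM in scramble + IgG, 297 and 293 CPM in scramble + anti-IL-6R, 292 and 265 CPM in shMCT-1 + IgG, and 245 and 305 CPM in shMCT-1 + anti-IL-6R. The lines overlapped. The log2 fold change was -0.08 within IgG (95% interval -0.33 to 0.17, edgeR adjusted p = 0.566) and -0.05 within anti-IL-6R (-0.30 to 0.20, adjusted p = 0.732). As folds, these intervals run from 0.796 to 1.12 and from 0.814 to 1.15, so that a change as large as that of Cldn4 or Epcam lies far outside them. The gene spans chr8:106603351-106670246 with up to 17 exons.

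Jup, the gene of plakoglobin, which serves both adherens junctions and desmosomes, was slightly higher in the shMCT-1 line. It measured 91.7 and 86.9 CPM in scramble + IgG, 89.9 and 89.4 CPM in scramble + anti-IL-6R, 122 and 101 CPM in shMCT-1 + IgG, and 116 and 111 CPM in shMCT-1 + anti-IL-6R. The lines did not overlap. The log2 fold change was 0.36 (SE 0.10, edgeR adjusted p = 0.0116) within IgG and 0.39 (SE 0.10, adjusted p = 0.00769) within anti-IL-6R. The correction for GC content and length ended both calls (0.09 and 0.16, adjusted p = 0.422 and 0.15). The first was also lost without shMCT-1 + IgG replicate 1 (adjusted p = 0.129), and the second without scramble + anti-IL-6R replicate 2 (adjusted p = 0.0628).

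Of the 8 junction genes other than Cldn4 and Epcam, 6 passed the filter, Cldn6 among them only through the shMCT-1 libraries, and 4 were called within IgG, where 54.4% of all tested genes were called. Jup and Ocln were among the 28.3% called higher in the shMCT-1 line, and Cldn3 and Tjp1 among the 26.1% called lower. The same 4 were called within anti-IL-6R, beside 54.3% of all tested genes, with 26.9% called higher and 27.3% lower. The same 4 also did not overlap between the 4 scramble and the 4 shMCT-1 libraries, which held for 64.1% of the tested genes. With so many genes called, a count of 4 says nothing particular of the junction genes, which were assembled with earlier results in view.

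No junction gene differed detectably between anti-IL-6R and IgG in either line, at the precision that 2 libraries a group allow. Within the scramble line, 0% of the tested genes were called between anti-IL-6R and IgG, and none of the 8 tested junction genes, with 166 of the 12704 genes under an unadjusted p of 0.05. The log2 fold change of Cldn4 was -0.04 (95% interval -0.34 to 0.26) and that of Epcam -0.03 (-0.37 to 0.31). Within the shMCT-1 line, again 0% were called by edgeR, with 505 genes under an unadjusted p of 0.05 and 11 called by DESeq2. There Cldn4 stood at -0.02 (-0.25 to 0.21) and Epcam at -0.07 (-0.32 to 0.18). Leaving aside the sparse Cldn6, the 7 tested junction genes ran from -0.11 to 0.09 in the scramble line and from -0.13 to 0.16 in the shMCT-1 line, Cldn3 being the highest in both. The difference between these responses, the interaction of line and antibody, was called for 0% of the tested genes, with 315 under an unadjusted p of 0.05 and 6 called by DESeq2. It ran from -0.04 to 0.12 over the 7 junction genes, and their 95% intervals stayed between -0.52 and 0.76. In the shMCT-1 line, the highest response of these 7 genes was 0.46 without shMCT-1 + anti-IL-6R replicate 1, and the lowest was -0.34 without replicate 2.

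**Figure D4:**
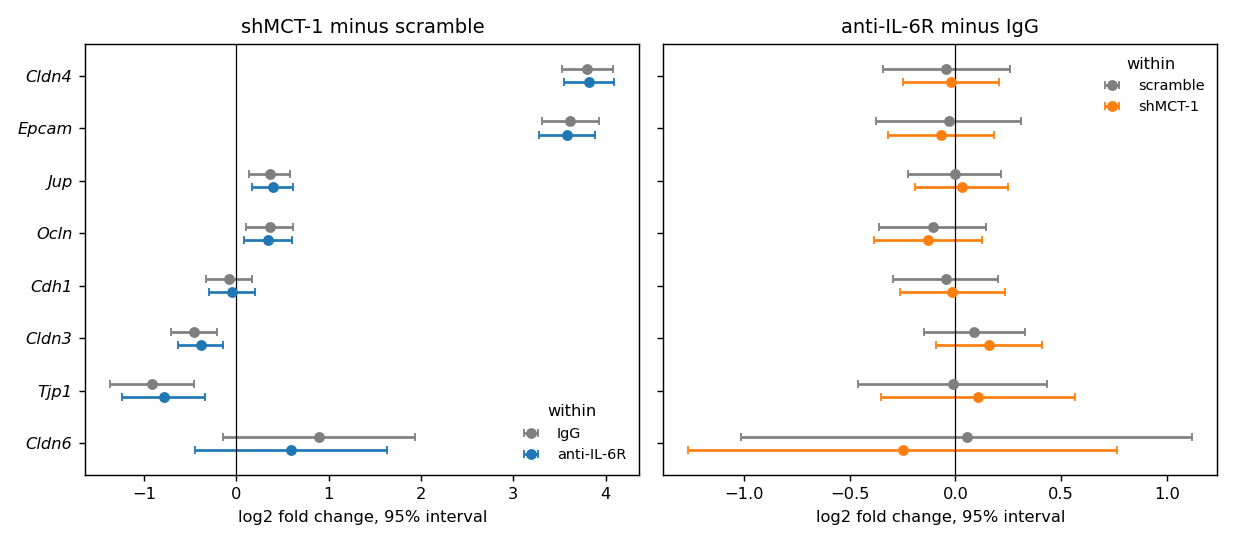
Log2 fold changes with 95% intervals of the 8 tested junction genes, between the lines (left) and between anti-IL-6R and IgG (right). Cldn4 and Epcam lie between 3.58 and 3.82 on the left, and on the right every interval spans 0. Both genes were chosen for the difference on the left, so their intervals there are a description and no test. The same holds on the left for Cldn6, which passed the filter only through the shMCT-1 libraries.

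Per kilobase of exon, the junction genes had another order in each line. The means and SDs given here pool the 2 IgG and the 2 anti-IL-6R libraries of a line. Cldn4 and Epcam were chosen for their difference between the lines, and their change of place follows from that choice. In the scramble libraries Cdh1 led with 65.4 ± 2.42 CPM per kilobase (SD, n = 4), followed by Cldn3 (24.4 ± 1.96), Tjp1 (20.2 ± 1.03), Jup (13.9 ± 0.305), Cldn4 (3.06 ± 0.342), Ocln (2.43 ± 0.153), Epcam (1.99 ± 0.251) and Cldn6 (0.36 ± 0.129). Neighbours in that order did not overlap in any library, apart from Ocln and Epcam. In the shMCT-1 libraries Cdh1 again led with 60.5 ± 5.90, and Cldn4 (41.6 ± 1.54) and Epcam (23.4 ± 1.00) came next, ahead of Cldn3 (17.6 ± 1.48) and Jup (17.4 ± 1.35), which overlapped. Tjp1 (10.8 ± 2.61), Ocln (3 ± 0.171) and Cldn6 (0.59 ± 0.145) followed without overlap. With the length of the longest transcript in place of all exons, Jup rose to 27.9 and 35.0 CPM per kilobase and passed Cldn3 in both lines and Epcam in the shMCT-1 line.

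The genes whose pattern over the 8 libraries was most like that of Cldn4 were ranked by the root mean square difference of their centred log2 levels. Lncenc1, a long noncoding RNA gene on chromosome 13, came first with 0.144, at 2.49 to 3.81 CPM in the scramble and 38.3 to 42.8 CPM in the shMCT-1 libraries. Col27a1, a collagen gene with 0 counts in every scramble library, was next with 0.15, and Epcam was the third with 0.152. Col27a1 passed the filter only through the shMCT-1 libraries, at 1.02 to 1.23 CPM. For Epcam, the nearest were Htatip2 (0.135), Cldn4 (0.152) and Lncenc1 (0.154). Htatip2 lay at 0.747 to 1.184 and 11.3 to 13.9 CPM. For Cdh1 they were Git2 (0.031), Picalm (0.0327) and Srp72 (0.037), genes that likewise varied little. These are descriptions over 8 libraries that share line and depth. Cldn4 and Epcam were both chosen for their difference between the lines, so their closeness follows from that choice and was not tested.

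The partners of the junction genes moved in both directions. Of 20 other tight junction proteins 13 were tested, 5 were called higher and 6 lower in the shMCT-1 line in either treatment. Over all tested genes, 28.3% were called higher and 26.1% lower within IgG, and 26.9% and 27.3% within anti-IL-6R. Marveld2, the gene of tricellulin, rose from 5.06 to 5.49 CPM up to 13.2 to 17.9 CPM (log2 fold change 1.62 within IgG, edgeR adjusted p = 4.30e-05). The scaffold gene Mpdz fell (-1.31, adjusted p = 9.71e-05). Magi2, another scaffold gene, lay at 3.9 to 5.08 and 0.501 to 1.02 CPM, and as it passed the filter through the scramble libraries, where it was high, its difference is described and not tested. The 6 counted lower include Magi2. By length-scaled level Ybx3 and Lsr led this list. The median of the list was 0.11 within IgG and 0.20 within anti-IL-6R, beside 0.0109 and 0.00798 for all tested genes.

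Of the 14 apical polarity proteins 11 were tested, 2 were called higher and 6 lower within IgG, and 2 and 4 within anti-IL-6R, where 54.4% and 54.3% of all tested genes were called. Within anti-IL-6R the counts were 0 higher and 1 lower without scramble + anti-IL-6R replicate 1, and the same without its replicate 2. The higher calls there were also 0 without shMCT-1 + IgG replicate 1, shMCT-1 + IgG replicate 2 or shMCT-1 + anti-IL-6R replicate 1, and the last left 2 lower. Within IgG, 1 was called higher without scramble + IgG replicate 2 or either shMCT-1 + IgG library. With the correction for GC content and length these counts were 1 and 3 within IgG and 0 and 2 within anti-IL-6R. The median was -0.34 within IgG. Pard6a, an adaptor of the polarity complex, rose within IgG (1.10, edgeR adjusted p = 0.00335, and 0.72 with the correction), and Pard3, its scaffold partner, fell (-0.56, adjusted p = 0.00207). Mpp5 also fell (-0.59, adjusted p = 0.00256), a call that the correction ended (adjusted p = 0.112). Scrib and Llgl1 had the highest length-scaled levels.

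Among 14 other adherens junction proteins, 9 were tested, and 3 were called higher and 3 lower in both treatments, beside 54.4% of all tested genes called within IgG and 54.3% within anti-IL-6R. Nectin2, an immunoglobulin-like adhesion gene, rose from 13.7 to 16.8 CPM up to 29.2 to 33.4 CPM (log2 fold change 1.12 within IgG, edgeR adjusted p = 5.98e-05). Ctnnd1, the gene of the p120 catenin that binds E-cadherin, fell (-0.69, adjusted p = 0.00135), as did Afdn (-0.67, adjusted p = 7.47e-04), which links nectins to actin. Corrected for GC content and length, Afdn stood at -0.35 (adjusted p = 0.00229). Ctnnb1 and Ctnna1, the core catenins, led by length-scaled level and did not pass the test. Cdh2, the N-cadherin gene, was at 0 in every library.

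Desmosome genes other than Jup numbered 15, of which 9 were tested. Within IgG 2 were called higher and 4 lower, and within anti-IL-6R 1 and 3, beside 54.4% and 54.3% of all tested genes called. The higher calls within IgG were 0 with DESeq2 and 0 without any 1 of scramble + IgG replicate 2, both scramble + anti-IL-6R libraries and both shMCT-1 + IgG libraries. Dsp, the gene of desmoplakin, fell from 363 to 408 CPM down to 133 to 178 CPM (log2 fold change -1.37 within IgG, edgeR adjusted p = 4.56e-05). The plakin gene Ppl fell more, by 1.57 on the log2 scale (adjusted p = 3.65e-05), and Pkp4 by 0.65 (adjusted p = 6.40e-04). Perp and Pkp3 had the highest length-scaled levels of this list and did not pass the test. Of 18 connexins 5 were tested, and 2 were called higher and 0 lower within IgG, against 3 and 1 within anti-IL-6R. The lower call was lost without either scramble + anti-IL-6R library or shMCT-1 + anti-IL-6R replicate 2. Gjc1 rose by 0.75 within IgG (edgeR adjusted p = 2.37e-04).

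**Figure D5:**
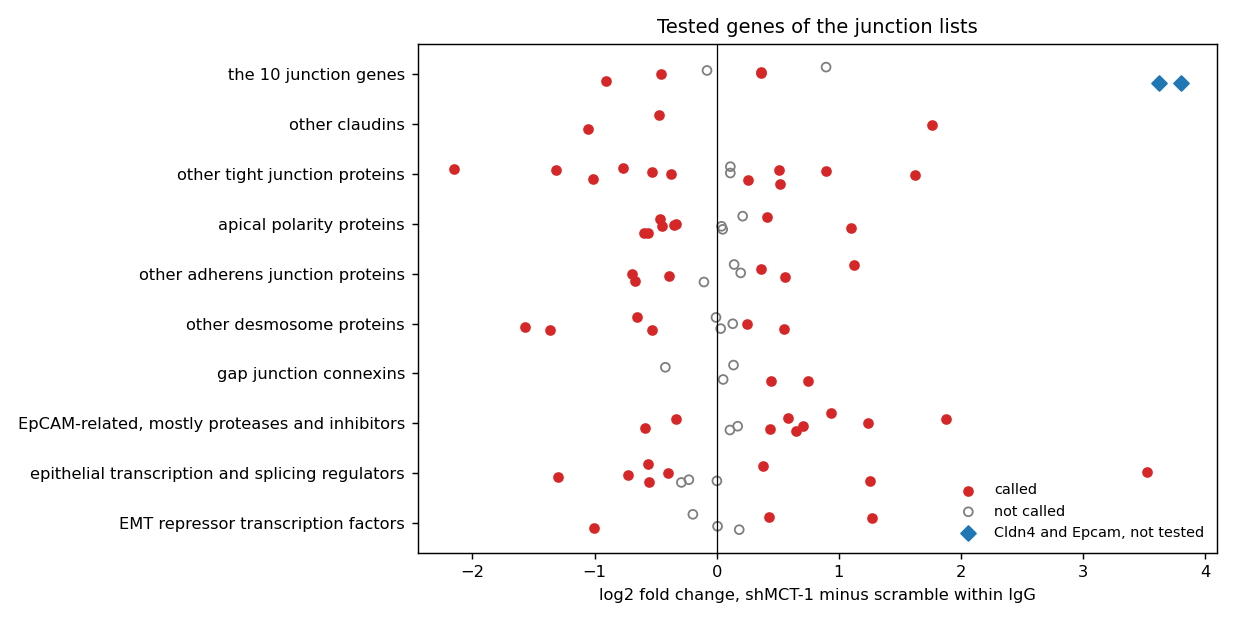
Log2 fold change of shMCT-1 over scramble within IgG for the tested genes of each list, 1 point a gene; filled points were called, open points were not, and diamonds are Cldn4 and Epcam, which were not tested. Cldn6, Magi2 and Ehf passed the filter only through the line where they were high, and their points are a description. In the lists of tight junction, adherens junction and desmosome proteins, called genes stand on both sides of 0.

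Genes related to EpCAM were taken as a list of 12, most of them proteases and their inhibitors. Of these 11 were tested, 7 were called higher and 2 lower within IgG, and 6 and 1 within anti-IL-6R, with a median log2 fold change of 0.58 and 0.55. All tested genes were called higher in 28.3% and lower in 26.1% within IgG, and in 26.9% and 27.3% within anti-IL-6R. Without any 1 of the IgG or scramble + anti-IL-6R libraries, 1 gene of the list was called lower within IgG, and without shMCT-1 + anti-IL-6R replicate 2, 2 were within anti-IL-6R. Spint1 and Spint2 encode membrane inhibitors of the matriptase group of serine proteases. Spint1 rose from 10.1 to 14.8 CPM up to 43.0 to 46.3 CPM (1.88 within IgG, edgeR adjusted p = 1.27e-05), and Spint2 by 0.93 (adjusted p = 8.15e-05). Prss8, a membrane-anchored protease, rose by 1.24 (adjusted p = 0.00136). Spint2 and Fhl2 led this list by length-scaled level.

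Regulators of epithelial genes were split as well. Among 15 transcription and splicing regulators, 11 were tested, with 3 called higher and 5 lower within IgG and 3 and 4 within anti-IL-6R, beside 54.4% and 54.3% of all tested genes called. The ETS factor gene Elf3 rose from 11.1 to 12.1 CPM up to 26.3 to 31.0 CPM (log2 fold change 1.25 within IgG, edgeR adjusted p = 2.65e-05). Ehf, of the same family, lay at 0.256 to 0.664 and 4.61 to 7.60 CPM, and as it passed the filter only through the shMCT-1 libraries, its difference is described and not tested. The 3 counted higher include Ehf. Klf4 fell by 1.30 (adjusted p = 5.31e-05). Klf5 and Gata3 had the highest length-scaled levels. Ovol2 was at 0 in every library.

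Of 9 EMT repressor factors, 6 were tested, with 2 called higher and 1 lower in both treatments, beside 54.4% of all tested genes called within IgG and 54.3% within anti-IL-6R. Within anti-IL-6R, 1 was called higher without scramble + anti-IL-6R replicate 2 or shMCT-1 + anti-IL-6R replicate 1, and within IgG 2 were called lower without scramble + IgG replicate 1. Zeb2 fell from 46.2 to 57.4 CPM down to 19.4 to 32.6 CPM (log2 fold change -1.01, edgeR adjusted p = 0.00165, within IgG and -0.80, adjusted p = 0.0055, within anti-IL-6R), and the correction for GC content and length took the first to -0.36 (adjusted p = 0.0141) and ended the second call (-0.16, adjusted p = 0.218). Snai3 rose by 1.27 (adjusted p = 0.00245) within IgG. Twist1 rose by 0.43 (adjusted p = 0.00508), a call that the correction ended (adjusted p = 0.704). Tcf3 and Snai1 led by length-scaled level, and Snai1, at 27.8 to 32.1 and 26.4 to 30.9 CPM, overlapped between the lines. Snai2 was at 0 in every library, and Zeb1 had 9 counts at most.

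The keratins, as markers of epithelial cells, did not all go one way. Of 6 keratins 5 passed the filter, and 4 were called higher in the shMCT-1 line in both treatments. The 1 counted lower was Krt19, which is described below without a test. Of all tested genes, 54.4% were called within IgG and 54.3% within anti-IL-6R. Krt7 rose from 346 to 365 CPM up to 590 to 649 CPM (log2 fold change 0.87 within IgG, edgeR adjusted p = 4.83e-05) and Krt14 by 0.59 (adjusted p = 2.69e-04), which the correction for GC content and length took to 0.22 (adjusted p = 0.0344). Krt19 lay at 16.5 to 19.5 and 0.384 to 0.774 CPM, and as it passed the filter only through the scramble libraries, its difference is described and not tested. Among the markers of other cells, Cd68 rose from 2.66 to 3.34 CPM up to 5.42 to 7.51 CPM (0.98, adjusted p = 0.00291). Col1a1 lay at 0.249 to 0.484 and 1.07 to 1.66 CPM, and Cdh5 at 0 to 0.125 CPM and 0.454 to 1.46 CPM. The part of these cells or transcripts in the differences of the junction genes was not tested.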

How the data were processed

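RNA of 4T1 cells was sequenced in 8 libraries of 4 groups, taken from the sample labels with the dose and time. The authors trimmed reads with cutadapt 1.18, aligned them with STAR 2.7.0d to mm10 with GENCODE release M19 and counted genes with RSEM. The deposited values are RSEM's expected counts per gene, which the authors did not scale. As 29.6% of the nonzero values had decimals, they were rounded here. Those of the 10 junction genes were whole in all 8 libraries. The kit carries molecular identifiers, and whether they were used to remove duplicates is not given in the sources used here. Coordinates, exons and lengths come from GENCODE M21 on GRCm38, in which 54495 of 54532 identifiers were found without their version.

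Genes above 1 CPM in at least 2 libraries were scaled by TMM and fitted with glmQLFit and glmQLFTest of edgeR 4.0.16 under R 4.3.3, with 4 group means in 1 fit. Tables were made with Python 3.11.15 and pandas 2.3.3. The fit was tested on simulated data. p-values weigh a difference against the spread between libraries of a group, and not against the spread between separately derived lines. The floor of 3 counts covers counting error only. Alternatives were RLE factors, DESeq2 1.42.0, edgeR's exact test, other filters, a replicate block, fits of 4 libraries, no mitochondrial genes, leaving out each library, and the longest transcript as length. A loess correction for GC content and transcript length (span 0.3) was chosen after seeing the data.

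The junction genes and lists were chosen with earlier results of these data known. Named genes were the 10 junction genes, Mcts1, the 2 nearest tested genes on either side of Cldn4 and Epcam, the 3 genes most alike in pattern to Cldn4, Epcam and Cdh1, and from each list up to 3 called genes with the largest difference within IgG and no overlap between the lines, and the 2 of highest length-scaled level. Some genes that this rule names are not reported here. Lists also served to count markers of other cell types.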

Additional observations from a re-analysis of the deposited data

How the results depend on the processing

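Without single libraries, the log2 fold change of Cldn4 between the lines ran from 3.64 to 3.99 within IgG and from 3.77 to 3.9 within anti-IL-6R, and that of Epcam from 3.53 to 3.71 and from 3.39 to 3.79. The junction genes other than these called between the lines numbered 2 to 4 in both treatments without single libraries, with 2 without shMCT-1 + IgG replicate 1 and 2 without either scramble + anti-IL-6R library. All genes called within anti-IL-6R numbered 4389 to 7303 without single libraries, the lowest without scramble + anti-IL-6R replicate 2. Between anti-IL-6R and IgG, the called genes were 10 (edgeR's exact test), 64 (no filter) and 0 to 14 (without single libraries, 14 without scramble + IgG replicate 1) in the scramble line, and 11 (DESeq2), 14 (exact test), 128 (no filter) and 0 to 1 in the shMCT-1 line. In the interaction they were 6 (DESeq2), 92 (no filter) and 0 to 8. None of these calls was one of the 10 junction genes. The correction for GC content and transcript length turned the antibody response of Cldn4 in the shMCT-1 line to 0.00795, Abhd11 between the lines to -0.105 within IgG and -0.201 within anti-IL-6R, and Mpp5 within anti-IL-6R to 0.0417. The cause of these changes was not tested.

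Without single libraries, these log2 fold changes took both signs. Within anti-IL-6R, Cdh1 ran from -0.196 to 0.111 and Abhd11 from -0.0682 to 0.287. Within IgG, Limk1 ran from -0.196 to 0.0257, Calm2 from -0.0926 to 0.285 and Msh6 from -0.104 to 0.162. In the antibody response, Cldn4 ran from -0.203 to 0.152 in the scramble and from -0.0768 to 0.052 in the shMCT-1 line, and Epcam from -0.243 to 0.158 in the scramble line.

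Same-numbered libraries showed no strong shared shift, as their deviations correlated at -0.0796 to 0.106. With 2 libraries a group, this cannot tell whether they were prepared together. With the replicate number as a block, 7035 genes were called within IgG and 7017 within anti-IL-6R, and 4 junction genes besides Cldn4 and Epcam in each. Cldn1, Cldn6 and Cldn7 are limited by depth.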
